A study of Mus musculus with 27 samples.

Results

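The Schlafen family was followed across the myeloid cells of a mouse microglia depletion study. Its members here are 7 genes of the mouse Schlafen cluster, Slfn1, Slfn2, Slfn3, Slfn4, Slfn5, Slfn8 and Slfn9, and a member was read from the array transcript annotated with its symbol alone, or from the one of highest mean signal where a gene had several. Of the 7 members, 6 had such a transcript, 1 each, among 21666 genes with a transcript of their own and 32245 transcripts tested. Slfn9 had none: it was measured only by a transcript that it shares with Slfn8, written Slfn9/Slfn8 below, and that signal cannot be split between the genes.

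Schlafen proteins take their name from the German verb for sleeping, after the growth arrest that the founding member caused when expressed in mouse thymocytes. They are usually sorted by size into short forms (Slfn1 and Slfn2), intermediate forms (Slfn3 and Slfn4) and long forms that add a helicase-like region (Slfn5, Slfn8, Slfn9 and Slfn14), and many are induced by type I interferon in immune cells, fibroblasts or tumour cells. Type I interferon acts through a receptor on nearly all cells, and many of its target genes carry the interferon-stimulated response element (ISRE) in front of them. IRF7 is itself induced by interferon and amplifies the response.

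The study asked what fills the brain's macrophage niche once microglia are removed. In Cx3cr1CreER/+R26DTA/+ mice, tamoxifen (TAM) switches on a diphtheria toxin subunit in cells that express the fractalkine receptor gene Cx3cr1, and CD11b+CX3CR1hi cells were sorted from the brain as F4/80low microglia and F4/80hi macrophages, 4 weeks after TAM (3 and 2 arrays) and 12 weeks after TAM (3 and 3 arrays). DTR microglia (2 arrays) came from Cx3cr1CreER/+R26DTR/+ mice given TAM and then diphtheria toxin (DT), 2 weeks after DT, and naive microglia (5 arrays) from brains without depletion; the study's methods state that these mice were Cx3cr1CreER/+ and also received TAM. Ly6Chi monocytes from bone marrow (5 arrays), red pulp macrophages (RPM) of the spleen (2 arrays) and CX3CR1hiCD64+MHCII+ intestinal macrophages (2 arrays) came from naive mice. All mice were on a C57BL/6 background, and by the study's methods experiments began at 6 to 12 weeks of age; no age is given for a single array. The Cre is driven by Cx3cr1, which monocytes and other macrophages also express, so it is not limited to microglia. Each array held RNA of a pool of 2 to 5 mice, and among the 5 arrays that naive microglia and Ly6Chi monocytes each have, 3 were biological and 2 technical. No label tells these apart, so comparisons that use them may give p-values that are too small. The test shares its residual variance over all groups, so other comparisons may be affected as well.

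Values are log2 signals. Odorant receptor transcripts, taken as not expressed in these cells, served as background: their 95th percentile lay between 5.19 and 5.61 in the 27 arrays, and a signal under it is called background below. Within groups, the mean Pearson r between arrays was 0.969 to 0.986. All groups showed their own cell type's markers, and the 7 measured microglia markers were above background in every brain array. The intestinal macrophage list did not set its group apart by the log2 of its summed signal. This was 13.04 to 13.09 in intestinal macrophages, 13.41 to 13.43 in RPM and 12.9 to 13.25 in F4/80hi macrophages at 4 weeks. Neutrophil markers set 3 arrays of the 4-week groups apart: the log2 of the summed signal of 8 neutrophil genes was 13.34 in F4/80hi replicate 1, 13.39 in F4/80low replicate 1 and 13.21 in F4/80low replicate 2, against 10.51 and 10.28 in the remaining 4-week arrays and 8.41 to 8.8 in naive microglia, and results that move with it are given with and without these 3 arrays. The arrays were run in 2 batches, with naive microglia and Ly6Chi monocytes in both, the 12-week and DTR groups in batch 1 and the 4-week groups, RPM and intestinal macrophages in batch 2. The test was a linear model over all arrays in limma with a batch term, so a fitted difference can depart a little from the difference of group means. A call, higher or lower, needed a change above 2-fold and a p under 0.05 after Benjamini-Hochberg adjustment over the whole table.

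The members lie together on chromosome 11, where RefSeq (GRCm38.p6) orders them Slfn5, Slfn9, Slfn8, the pseudogene Slfn10-ps, Slfn2, Slfn1, Slfn4, Slfn3 and, last, Slfn14, with Slfn8, Slfn9 and Slfn14 on the minus strand. Promoter windows of 300 bases, from 250 bases before to 50 bases after a gene's RefSeq start, were searched on both strands for the core of the ISRE (GAAA, any 2 bases, GAAA) and for the gamma-activated site (TTC, any 3 bases, GAA). The ISRE core was found in the windows of Slfn5, Slfn8 and Slfn9 and not in those of Slfn1, Slfn2, Slfn3, Slfn4 or Slfn14. Of all 32851 windows, 3.44% held it. The gamma-activated site, held by 8.3% of all windows, was in none of the members' windows. One window with an ISRE core is shown for each of these 3 genes, with the match in capitals. Slfn5 was chosen because its signal followed several interferon-stimulated genes, and Slfn8 and Slfn9 because they share a transcript on the array.
Slfn5, chr11:82951852-82952151, plus strand: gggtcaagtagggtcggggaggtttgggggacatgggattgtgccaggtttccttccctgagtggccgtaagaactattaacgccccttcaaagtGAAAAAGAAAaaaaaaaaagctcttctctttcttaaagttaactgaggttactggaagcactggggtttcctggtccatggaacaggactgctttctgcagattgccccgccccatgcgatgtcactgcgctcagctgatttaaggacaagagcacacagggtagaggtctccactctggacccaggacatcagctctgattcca
Slfn8, chr11:83020761-83021060, minus strand: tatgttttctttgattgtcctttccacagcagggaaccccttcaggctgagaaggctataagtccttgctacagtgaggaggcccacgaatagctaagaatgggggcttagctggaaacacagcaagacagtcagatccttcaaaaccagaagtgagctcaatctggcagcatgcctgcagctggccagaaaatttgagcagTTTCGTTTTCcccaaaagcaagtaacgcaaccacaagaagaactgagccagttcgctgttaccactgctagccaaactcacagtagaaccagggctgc
Slfn9, chr11:82991781-82992080, minus strand: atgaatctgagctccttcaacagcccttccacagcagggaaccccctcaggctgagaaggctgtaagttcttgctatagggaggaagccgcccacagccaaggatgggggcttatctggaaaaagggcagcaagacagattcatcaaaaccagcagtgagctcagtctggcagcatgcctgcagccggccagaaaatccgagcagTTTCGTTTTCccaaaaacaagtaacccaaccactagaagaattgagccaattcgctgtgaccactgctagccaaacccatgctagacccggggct
In Slfn5 the match starts 155 bases before the gene's start on the gene's own strand, inside an A-rich run. In Slfn8 and Slfn9 it lies on the opposite strand, 48 and 45 bases before the start, and has the same letters (TTTCGTTTTC) in both. RefSeq gives Slfn8 a further start, whose window (chr11:83020673-83020972) overlaps the one shown and holds the same match, 136 bases before that start. The Slfn8 and Slfn9 windows were alike over their whole length, with 246 identical bases in an alignment of 305 columns (80.7%). All other pairs of members lay between 42.3% and 50.3%. A match in these letters is a description of the window and not evidence of a bound site.

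Slfn1, the founding short member, was highest in Ly6Chi monocytes and at background in naive microglia. Its 5 monocyte arrays read 8.44, 9.31, 8.76, 8.7 and 9.35, and the 5 naive microglia arrays 5.27, 4.74, 5.17, 5.14 and 5.27. Intestinal macrophages came next, with 7.6 and 7.67, and RPM read 6.17 and 6.07. No array of the monocytes overlapped any other group, and no array of the intestinal macrophages overlapped a neighbouring group in the order. At 4 weeks the repopulating groups were split: F4/80hi macrophages read 7.2 and 5.74 and F4/80low microglia 6.9, 6.68 and 5.65, while all 12-week and DTR arrays lay between 5.11 and 5.75.

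Slfn2, whose loss in mice leaves T cells and monocytes unable to hold a quiescent state, was above background in all 27 arrays and moved little. Its group means ran from 7.79 ± 0.21 (SD, n = 5) in Ly6Chi monocytes to 6.26 ± 0.21 (SD, n = 3) in F4/80low microglia at 12 weeks. Each group overlapped the next in that order, so neighbours do not differ beyond their spread. On this array the Slfn2 transcript holds the same values in every array as that of Gm20234, a gene on the opposite strand, so the signals of Slfn2 and Gm20234 cannot be told apart. The Slfn5 transcript likewise equals that annotated to Slfn5os and Slfn5.

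Slfn3, an intermediate form known from T cells and gut epithelium, was above background in the monocytes and close to or under it elsewhere. The monocyte arrays read 6.94, 6.88, 7.48, 6.79 and 6.64. Of the other 22 arrays, only F4/80hi replicate 1 at 4 weeks, at 5.51, was above its array's background, and naive microglia lay between 3.61 and 4.23, where the median odorant receptor also lies (4.06 to 4.3).

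Slfn4, the intermediate form that is induced by interferon and Toll-like receptor ligands in macrophages, had its highest level in the repopulating brain cells at 4 weeks and not in the monocytes. F4/80hi macrophages at 4 weeks read 8.26 and 7.18, and F4/80low microglia at 4 weeks 8.01, 7.22 and 4.74. Ly6Chi monocytes read 6.9, 6.18, 6.49, 6.19 and 6.13, and F4/80hi macrophages at 12 weeks 6.09, 5.49 and 5.74. F4/80low microglia at 4 weeks thus reached from the level of F4/80hi macrophages down to that of naive microglia (4.29 to 5.13), and DTR microglia (4.75 and 4.57) and F4/80low microglia at 12 weeks (4.3, 4.7 and 4.82) were at background.

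Slfn5, a long form that in human cells is induced by interferon and acts on interferon target genes, was ordered RPM, intestinal macrophages, DTR microglia, Ly6Chi monocytes, F4/80hi macrophages at 4 weeks, F4/80low microglia at 4 weeks, F4/80hi macrophages at 12 weeks, naive microglia and F4/80low microglia at 12 weeks. RPM read 7.37 and 7.51, DTR microglia 7.06 and 6.95, and naive microglia 5.57, 5.61, 5.96, 5.83 and 5.48. The groups from intestinal macrophages to F4/80hi macrophages at 12 weeks each overlapped the next, whereas RPM stood above them and the 2 lowest groups below, without overlap. F4/80low microglia at 12 weeks, with 5.75, 5.53 and 5.52, lay within the range of the naive arrays.

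Slfn8, a long form, was high in brain cells and lower in the macrophages of spleen and gut. Group means were 9.37 ± 0.42 (SD, n = 2) in DTR microglia, 8.36 ± 0.25 (SD, n = 5) in naive microglia, 8.07 ± 0.24 (SD, n = 5) in Ly6Chi monocytes, 7.19 ± 0.69 (SD, n = 2) in RPM and 6.79 ± 0.39 (SD, n = 2) in intestinal macrophages. RPM (6.7 and 7.68) and intestinal macrophages (7.07 and 6.51) lay below all 18 brain arrays, the lowest of which read 7.73, in F4/80low microglia at 12 weeks. The Slfn9/Slfn8 transcript did not follow the Slfn8 transcript. It was highest in Ly6Chi monocytes (8.41 to 8.61), second in RPM (7.97 and 7.64) and lowest in naive microglia (5.05 to 6.36), and over the 27 arrays, which share groups and batches, its Pearson r with Slfn8 was -0.246.

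**Figure D1:**
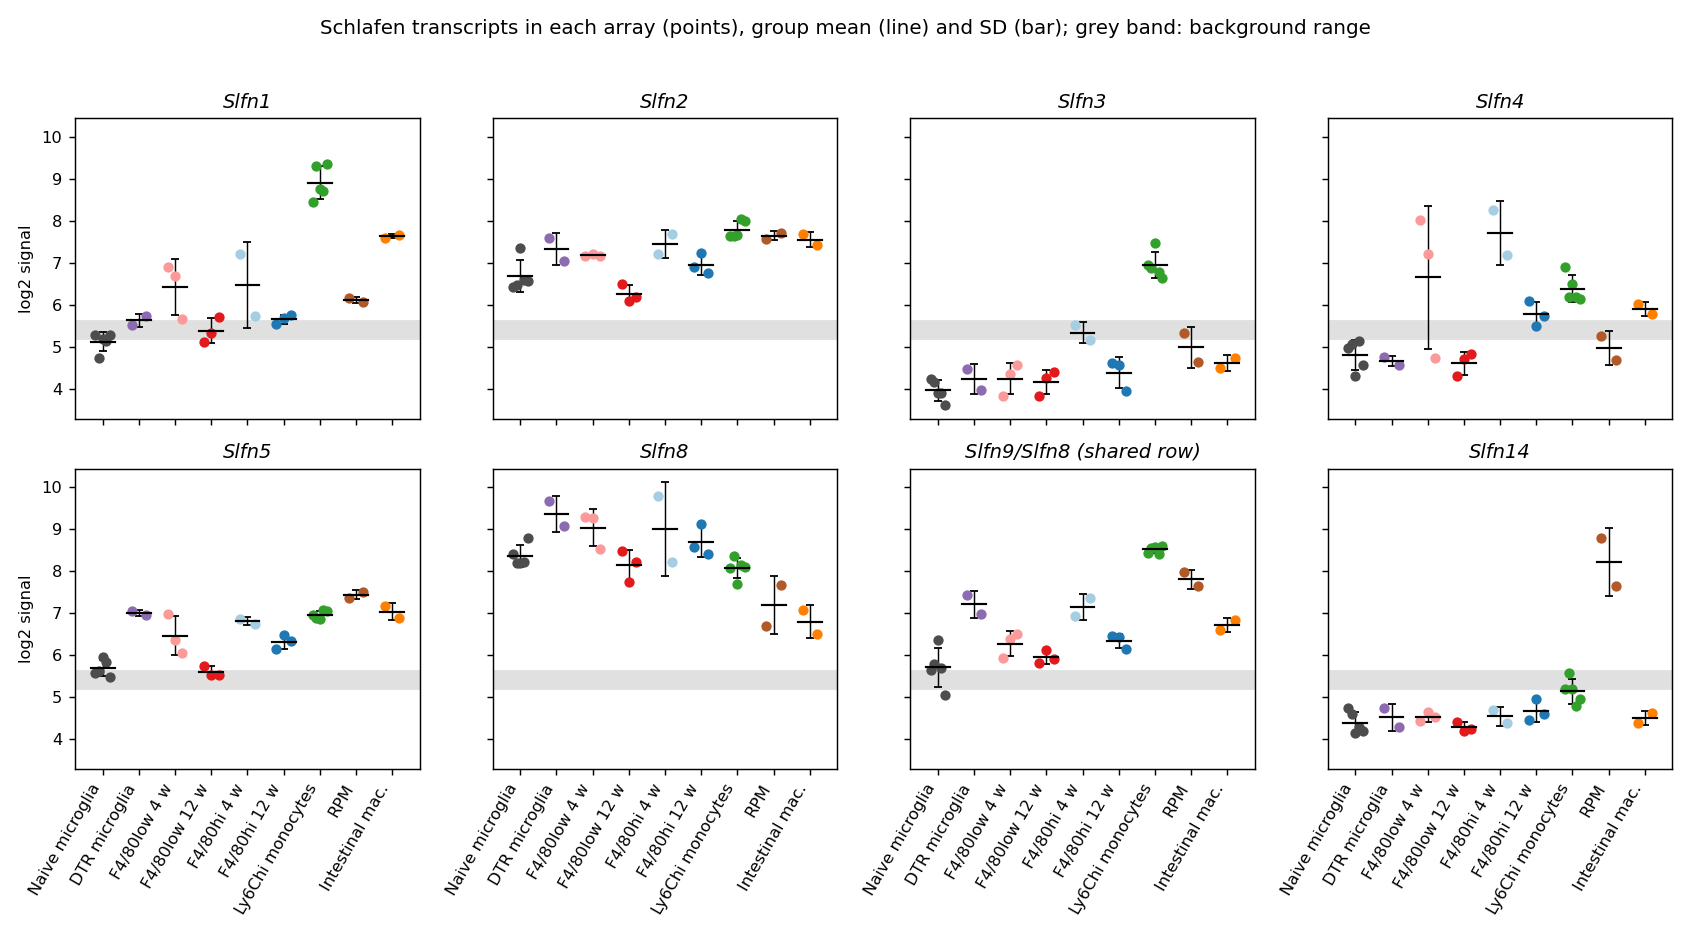
Each panel plots the log2 signal of 1 transcript (vertical axis) in the 9 groups (horizontal axis); points are arrays, the line is the group mean, the bar 1 SD, and the grey band the range of background over arrays (5.19 to 5.61). Slfn1 and Slfn3 peak in Ly6Chi monocytes, Slfn4 in the 4-week brain groups, Slfn5 and Slfn14 in RPM; signals are not comparable between panels, since each transcript has its own probes.

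Between Ly6Chi monocytes and naive microglia, cells of the bone marrow and the resident cells of the brain, 5 of 6 members were called higher in monocytes and none lower, where 9.15% of all tested transcripts were called higher and 5.48% lower. Slfn1 was 14.23-fold higher (log2 difference 3.83, SE 0.24, limma adjusted p = 2.13e-12) and Slfn3 7.54-fold (2.91, SE 0.18, adjusted p = 1.41e-12), from a naive level at background in both cases. Slfn4 was 2.84-fold, Slfn5 2.48-fold and Slfn2 2.27-fold higher (adjusted p of 0.0024, 2.29e-08 and 4.31e-07), and the arrays of the groups did not overlap for any of these 5, where 17.1% of all transcripts had every monocyte array above every naive array. Slfn8 differed by -0.27 (adjusted p = 0.491), while the Slfn9/Slfn8 transcript was 7.02-fold higher (adjusted p = 2.66e-12). In these bulk samples a smaller share of cells that express a gene and less RNA per cell cannot be told apart. Marker sums of other cells were higher in monocytes than in naive microglia. Neutrophil sums were 12.39 to 13.07 against 8.41 to 8.8, and B and plasma cell sums 10.68 to 11.07 against 8.13 to 8.81. NK cell sums were 8.67 to 9.35 against 6.97 to 7.55. The part of such cells in the monocyte values was not tested. Slfn2 fell below 2-fold after quantile normalization, with a log2 difference of 0.95. Slfn4 lost its call in the batch 2 arrays alone, with the same difference of 1.5 and adjusted p = 0.16. A batch adjustment in the deposited values makes this difference equal in both batches, so its sameness is no further check.

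Of the 6 members, Slfn5 alone was called higher than in naive microglia in monocytes, RPM and intestinal macrophages alike. The Slfn9/Slfn8 transcript was also called in each (2.81, 2.11 and 1.02). Its intestinal call was lost in a fit of only the arrays compared (adjusted p = 0.0581) and without naive replicate 5 (0.78). Slfn2 was under 2-fold, at 0.81 in RPM (limma adjusted p = 0.00293) and 0.71 in intestinal macrophages (adjusted p = 0.00928). Slfn1 missed the call in RPM alone, at 0.93 (adjusted p = 0.0325), and was called there without the batch term. Slfn3 missed it in intestinal macrophages alone, at 0.81 (adjusted p = 0.0144). The fold threshold thus set Slfn5 apart from Slfn1, Slfn2 and Slfn3. With the replicate number as a block, Slfn5 itself was under 2-fold in intestinal macrophages, at 0.88. In RPM, 2 members were called higher than in naive microglia and 1 lower, against 8.51% and 7.24% of all transcripts. Slfn5 was 3.22-fold higher (log2 difference 1.69, SE 0.19, adjusted p = 1.03e-07), Slfn3 was 2.28-fold higher between levels that are both at background (adjusted p = 4.53e-04), and Slfn8 was 2.3-fold lower (adjusted p = 0.0105). Without RPM replicate 1, Slfn3 differed by 0.84 (adjusted p = 0.0431) and Slfn8 by -0.71 (adjusted p = 0.269), and neither was called, and in batch 2 alone Slfn8 also missed the call (adjusted p = 0.0505). The dendritic cell list held Flt3, Zbtb46, Xcr1, Clec9a, Cd209a and Siglec1, of which 5 genes were measured. Their log2 sum was 11.58 to 11.7 in RPM and 10.95 to 11.23 in intestinal macrophages. In naive microglia it was 8.34 to 8.86, and Zbtb46 was at background in all 3 groups. Of the 5 genes, 3 to 4 were above background in RPM, 4 in intestinal macrophages and 2 to 3 in naive microglia. Which gene carried the sum was not tested, so a higher sum alone does not show dendritic cells. Neutrophil sums were 10.52 and 10.47 in RPM, with 7 of 8 genes above background, against 8.41 to 8.8 in naive microglia. Whether such cells were present, and their part in these values, was not tested. In intestinal macrophages, again 2 members were called higher and 1 lower, against 7.09% and 5.95% of all transcripts: Slfn1 was 5.43-fold higher (adjusted p = 2.48e-06), Slfn5 2.42-fold higher (adjusted p = 8.06e-06) and Slfn8 3.04-fold lower (adjusted p = 0.00111). All 5 measured B and plasma cell markers were above background in both intestinal macrophage arrays. Their log2 sum was 13.34 to 13.42 against 8.13 to 8.81 in naive microglia, where Cd79a, Ms4a1, Pax5 and Jchain were at background. Ly6Chi monocyte markers had a log2 sum of 11.56 to 11.85 in intestinal macrophages against 7.67 to 8.25 in naive microglia. Of the 6 measured monocyte genes, 5 were above background in each intestinal array, against 1 to 5 in naive arrays. T cell sums were 8.17 to 8.48 against 7.55 to 7.81, and NK cell sums 7.68 to 8.26 against 6.97 to 7.55. The part of such cells in the intestinal values was not tested.

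Against Ly6Chi monocytes, Slfn1 and Slfn3 were called lower in both tissue macrophages. Slfn1 differed by -2.9 in RPM (adjusted p = 4.15e-07; 6.73% of all transcripts were called lower) and by -1.39 in intestinal macrophages (adjusted p = 0.00421; 5.76%), and Slfn3 by -1.73 and -2.1. Slfn8 was also lower in intestinal macrophages than in monocytes, with a log2 difference of -1.33 (adjusted p = 0.0107), a call lost without intestinal replicate 2 (-1.06, adjusted p = 0.145) and in batch 2 alone (adjusted p = 0.0726), and in RPM it differed by -0.93, called without RPM replicate 2 (-1.42, adjusted p = 0.0311). Directly between RPM and intestinal macrophages, 1 of 6 members was called, Slfn1, lower in RPM with a log2 difference of -1.51 (adjusted p = 0.00473; 5.7% of all transcripts were called lower). The shared Slfn9/Slfn8 transcript was 2.13-fold higher in RPM (adjusted p = 0.00597), which fell under the call to 0.92 without RPM replicate 1 (adjusted p = 0.0779) and to 0.97 without intestinal replicate 1 (adjusted p = 0.0687).

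F4/80hi macrophages, the engrafting cells of the depleted brain, had 4 of 6 members called higher than naive microglia at 4 weeks and none lower, where 1.53% of all transcripts were called higher. Slfn4 rose 8.35-fold (log2 difference 3.06, 95% interval 2.01 to 4.12, adjusted p = 3.00e-04). Slfn3 was 2.9-fold higher (1.54, adjusted p = 1.76e-04), from background to its edge. Slfn1 was 2.42-fold higher (1.27, adjusted p = 0.0218) and Slfn5 2.07-fold (1.05, adjusted p = 6.23e-04), and no array of these 4 members overlapped between the groups, where 7.66% of all transcripts had both F4/80hi arrays above every naive array. The Slfn9/Slfn8 transcript was 2.71-fold higher as well (adjusted p = 3.50e-04), Slfn2 differed by 0.61 (adjusted p = 0.111) and Slfn8 by 0.61, with arrays of 9.79 and 8.22. In a fit of only the arrays compared, Slfn1 and the Slfn9/Slfn8 transcript lost their calls at the same differences (adjusted p = 0.219 and 0.0969), as did Slfn1 in batch 2 alone (adjusted p = 0.159). The batch adjustment in the deposited values keeps these differences the same, so their sameness is no further check. With the replicate number as a block, Slfn4 (2.79, limma adjusted p = 0.0643), Slfn1, Slfn5 and the Slfn9/Slfn8 transcript lost their calls. The log2 sum of 5 dendritic cell markers was 10.97 and 11.35 in F4/80hi macrophages at 4 weeks and 10.26 to 10.54 at 12 weeks. In naive microglia it was 8.34 to 8.86, and Zbtb46 was at background throughout. Of the 5 genes, 3 were above background in each 4-week F4/80hi array, against 2 to 3 in naive arrays. Which gene carried the sum, whether dendritic cells were present, and their part in these values were not tested. Leaving out F4/80hi replicate 1, the array high in neutrophil markers, left Slfn1 at 0.54 (adjusted p = 0.557) and Slfn5 at 0.98 (adjusted p = 0.0178), so that 2 members were called; Slfn5 was also under 2-fold, at 0.95, without naive replicate 5, and Slfn8 was called, at 1.4 (adjusted p = 0.0474), without F4/80hi replicate 2.

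F4/80low microglia at 4 weeks had 2 members called higher than naive microglia and none lower, against 0.735% of all transcripts called higher. Slfn4 differed by 2 on the log2 scale (SE 0.45, adjusted p = 0.0165), with its lowest array (4.74) inside the naive range, and Slfn1 by 1.22 (SE 0.29, adjusted p = 0.0244). Slfn5 differed by 0.71, under 2-fold (adjusted p = 0.0209). These calls rested on few arrays. Without F4/80low replicate 1, Slfn4 differed by 1.32 (adjusted p = 0.187) and Slfn1 by 0.97 (adjusted p = 0.199). Without F4/80low replicate 2 the values were 1.72 (adjusted p = 0.122) and 1.09 (adjusted p = 0.14), and without naive replicate 3 they were 1.87 (adjusted p = 0.0581) and 1.21 (adjusted p = 0.059). Slfn1 alone was lost without naive replicate 4 or 5 (1.2 and 1.25, adjusted p = 0.061 and 0.0527).

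Neutrophil markers moved with Slfn4 and Slfn1 in the 4-week groups. All 8 neutrophil genes were above background in the 3 arrays with the highest sums and 6 of 8 in each of the remaining 4-week arrays, while Ly6g, S100a8, Camp, Ltf and Retnlg were at background in every naive array. Ly6Chi monocyte markers were raised in the same 3 arrays, with a log2 sum of 10.55, 9.88 and 10.51 against 8.68 and 8.54 in the remaining 4-week arrays and 7.67 to 8.25 in naive microglia. Without these 3 arrays, 1 array of F4/80hi macrophages and 1 of F4/80low microglia remained at 4 weeks, each assumed to vary like the other groups. In that fit no member was called higher in F4/80low microglia than in naive microglia (Slfn4 0.09, adjusted p = 0.965; Slfn1 0.46, adjusted p = 0.644). F4/80hi macrophages kept the calls of Slfn4 and Slfn3, and Slfn4 was then called 2.43 log2 units higher in F4/80hi than in F4/80low cells (adjusted p = 8.16e-04). Monocytes had neutrophil sums of 12.39 to 13.07 with Slfn4 at 6.13 to 6.9, and F4/80hi replicate 2 had a sum of 10.51 with Slfn4 at 7.18. The part of neutrophil RNA in the Slfn4 and Slfn1 signals was not tested.

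**Figure D2:**
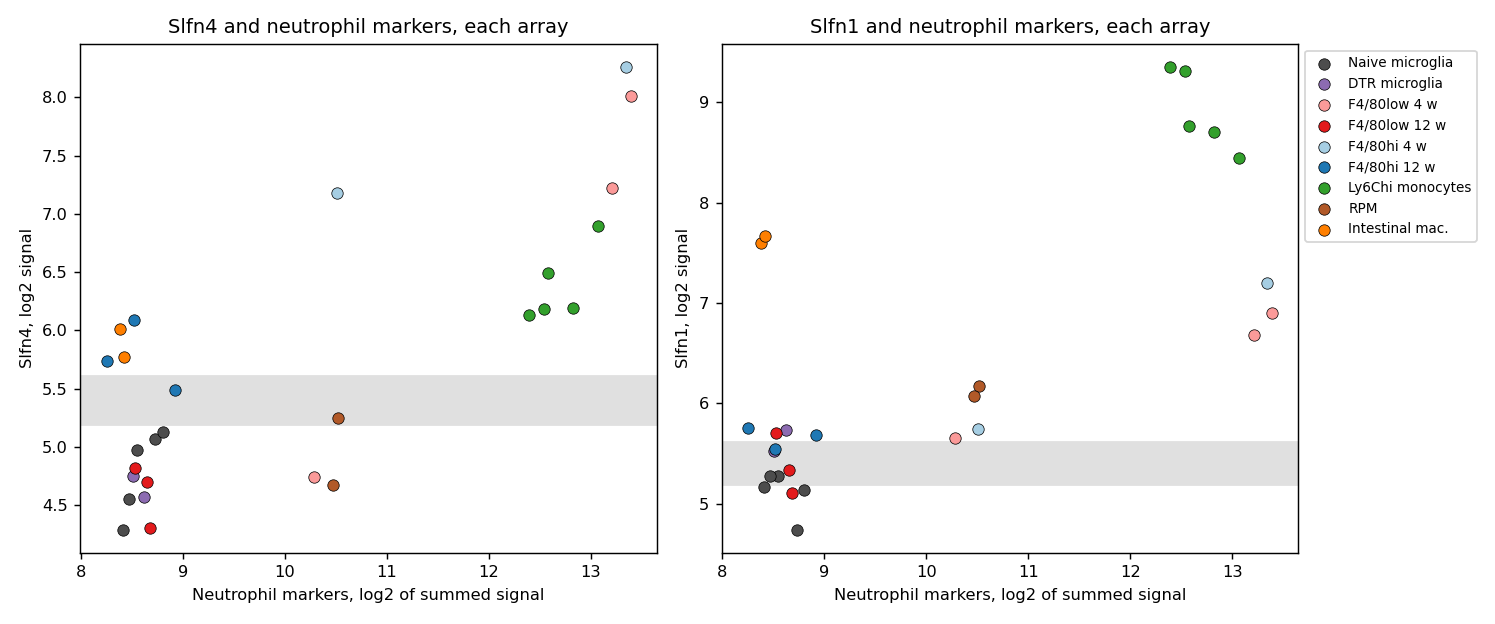
Each point is 1 array; the horizontal axis is the log2 of the summed signal of 8 neutrophil markers, the vertical axis the log2 signal of Slfn4 (left) or Slfn1 (right), and the grey band the background range. The 3 arrays at 4 weeks with sums of 13.21 to 13.39 have Slfn4 at 7.22 to 8.26, F4/80hi replicate 2 has 7.18 at a sum of 10.51, and F4/80low replicate 3 has 4.74 at 10.28.

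At 12 weeks no member was called against naive microglia in either repopulating group (limma). In F4/80hi macrophages, where 2.99% of all transcripts were called in either direction, 3 of 6 members had an unadjusted p under 0.05, all higher, as had 7.08% of all transcripts: Slfn5 differed by 0.72 (95% interval 0.36 to 1.09, adjusted p = 0.00997), under 2-fold, Slfn1 by 0.65 (adjusted p = 0.294) and Slfn2 by 0.5 (adjusted p = 0.152). Slfn4 differed by 0.75 (95% interval -0.25 to 1.75), though its 3 arrays lay above all naive arrays. In F4/80low microglia, where 0.115% of all transcripts were called, no member had an unadjusted p under 0.05 (6.05% of all transcripts in either direction), and Slfn5 differed by 0.01 (95% interval -0.35 to 0.37).

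Between the repopulating cells, which the study sorted from the same brains, 1 member was called at 4 weeks and none at 12 weeks (limma). At 4 weeks Slfn3 was 2.14-fold higher in F4/80hi macrophages (adjusted p = 0.0493, where 0.326% of all transcripts were called higher), at signals near or under background in both groups, and the call was lost on leaving out any 1 of the 5 arrays (adjusted p from 0.0671 to 0.245). At 12 weeks, with 2.51% of all transcripts called, 3 of 6 members had an unadjusted p under 0.05, all higher in F4/80hi macrophages, as had 7.58% of all transcripts: Slfn5 differed by 0.72 (adjusted p = 0.0116), Slfn2 by 0.7 (adjusted p = 0.0264) and Slfn4 by 1.17 (adjusted p = 0.214). The first 2 were under 2-fold, and Slfn4 was called, with the same difference, when only the arrays of these groups entered the fit (adjusted p = 0.00853).

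Against Ly6Chi monocytes, F4/80hi macrophages were lower in Slfn1 and Slfn3. The monocyte arrays of both lay above those of every other group, so this direction holds for any group and is not particular to engrafted cells. At 12 weeks 2 of 6 members were called lower and none higher, where 9.61% of all transcripts were called lower: Slfn1 differed by -3.18 on the log2 scale (adjusted p = 3.28e-09) and Slfn3 by -2.73 (adjusted p = 2.61e-10). At 4 weeks Slfn1 differed by -2.56 (adjusted p = 2.89e-06) and Slfn3 by -1.38 (adjusted p = 2.06e-04), and these were again the 2 members called lower, where 7.81% of all transcripts were called lower and 4.66% higher. Slfn4 was the member called higher than in monocytes at 4 weeks, by 1.56 (adjusted p = 0.0379). That call was lost without monocyte replicate 2, 4 or 5 (adjusted p = 0.0516, 0.0778 and 0.0847) without F4/80hi replicate 1 (1.02, adjusted p = 0.379) and in batch 2 alone (adjusted p = 0.208). Slfn5, which differed by -0.26 at 4 weeks and by -0.58 at 12 weeks, and Slfn2, by -0.58 and -0.69, were within 2-fold of the monocyte level at both times. Slfn8 differed by 0.89 at 4 weeks and was called higher without F4/80hi replicate 2 (1.67, adjusted p = 0.00278).

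From 4 to 12 weeks no member was called as changed in F4/80hi macrophages or in F4/80low microglia (limma; 0.171% and 0.183% of all transcripts were called), nor was the difference between these populations called as changed with time (0.118%). Members with an unadjusted p under 0.05 numbered 2 in F4/80hi macrophages, 4 in F4/80low microglia and 1 in the difference, all negative, where 4.62%, 5% and 3.58% of all transcripts had such a p and a negative value. Slfn4 had the largest of these values: it differed by -2.31 in F4/80hi macrophages (adjusted p = 0.216) and by -2.42 in F4/80low microglia (adjusted p = 0.108), the latter called at -3.37 (adjusted p = 8.34e-06) without F4/80low replicate 3 at 4 weeks. Without the 3 arrays of high neutrophil signal, Slfn4 was called lower at 12 weeks in F4/80hi macrophages (-1.77, adjusted p = 0.0335), against the 1 array left at 4 weeks. The 4-week and 12-week arrays were run in different batches, which were linked only through naive microglia and monocytes.

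DTR microglia, which regrew after another form of depletion, had 1 of 6 members called higher than naive microglia and none lower, where 0.633% of all transcripts were called higher. Slfn5 was 2.66-fold higher (log2 difference 1.41, 95% interval 1.01 to 1.82, adjusted p = 1.13e-04), with both arrays above every naive array. The Slfn9/Slfn8 transcript was 2.82-fold higher (adjusted p = 0.00176), a call lost without DTR replicate 1 (1.26, adjusted p = 0.0977) and in a fit of only the arrays compared (adjusted p = 0.224). Slfn2 differed by 0.86, under 2-fold (adjusted p = 0.0478), and was called without DTR replicate 2 (1.13, adjusted p = 0.0395). Slfn8 differed by 1.06 (adjusted p = 0.293), and Slfn4 by -0.36 (adjusted p = 0.952). Neutrophil marker sums in the DTR arrays, 8.51 and 8.62, lay in the naive range. The sum of 5 dendritic cell markers was 10.06 and 9.85, against 8.34 to 8.86 in naive microglia, with Zbtb46 and Xcr1 at background. Of the 5 genes, 3 were above background in each DTR array, against 2 to 3 in naive arrays. Which of them carried the sum was not tested. The sum of 6 T cell markers was 8.21 and 7.92, against 7.55 to 7.81. Cd3d, Cd3e, Cd3g, Cd2 and Thy1 were at background in all DTR and naive arrays, which left 1 gene above it. Whether such cells were present, and their part in these values, was not tested.

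**Figure D3:**
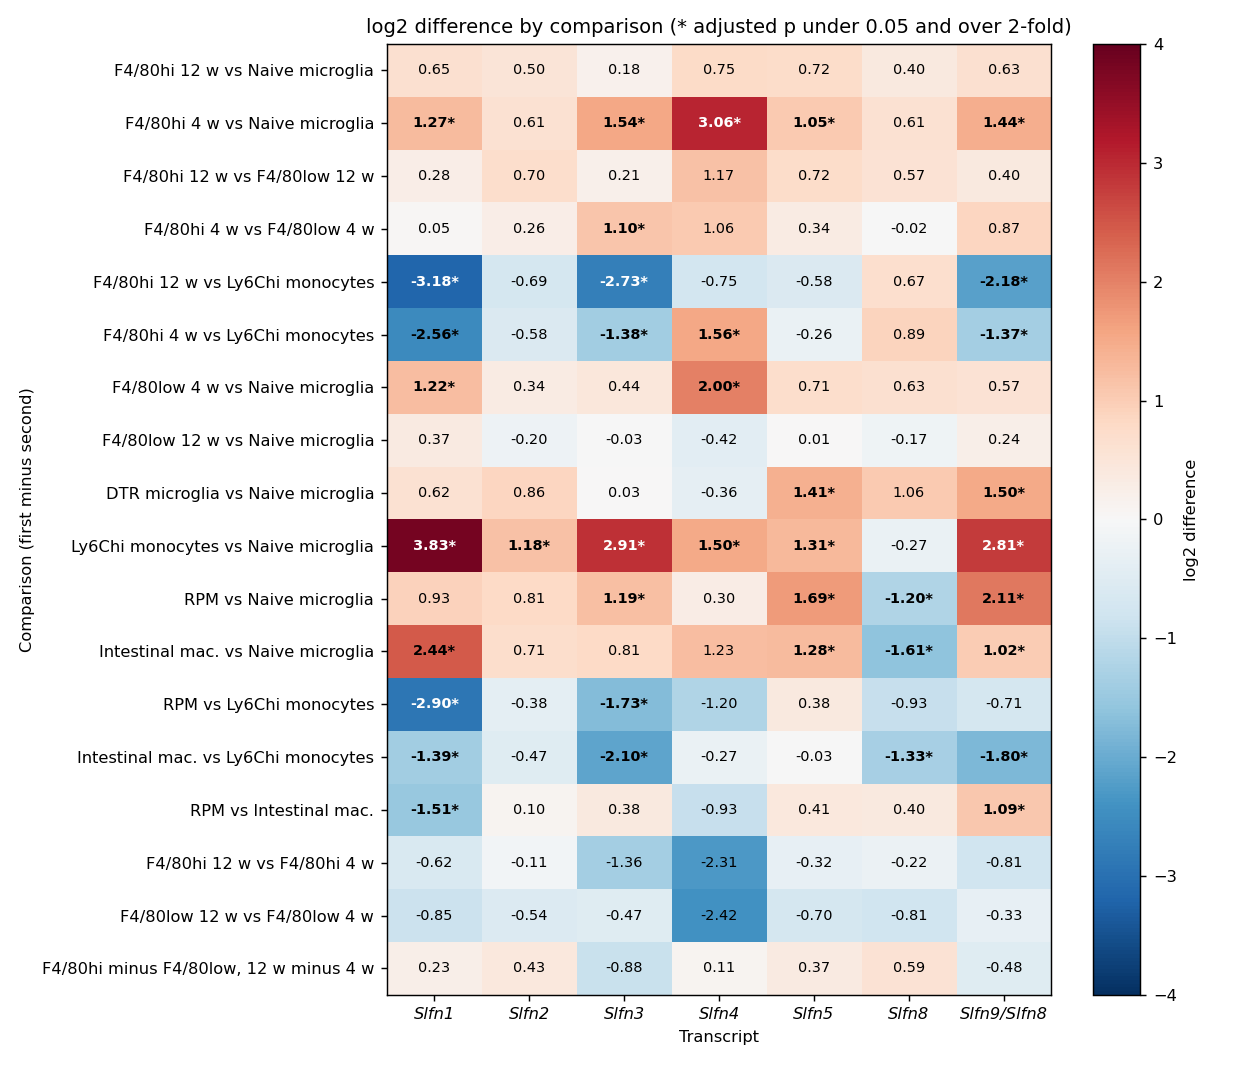
Rows are the 18 comparisons, columns the 6 members and the Slfn9/Slfn8 transcript; each cell gives the fitted log2 difference of the first group minus the second (red higher, blue lower), with bold type and an asterisk where a call was made. Slfn1 and Slfn3 are called in each comparison that involves monocytes, Slfn5 is called against naive microglia in each peripheral cell, in DTR microglia and in F4/80hi macrophages at 4 weeks, and the 12-week comparisons with naive microglia hold no call.

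Slfn5 followed Irf7 and several other interferon-stimulated genes over the groups, but not all. Ifit3 had a mean of 7.62 in naive microglia, against 7 in RPM, 7.21 in intestinal macrophages and 7.02 in Ly6Chi monocytes. Rtp4 had a mean of 7.26 in monocytes against 7.91 in naive microglia, but 10.2 in RPM and 9.08 in intestinal macrophages. Oas2, Isg15 and Usp18 had higher means than in naive microglia in each of these groups. Of 8489 genes with 1 symbol and group means that span at least 1 log2 unit, those with the highest Pearson r to Slfn5 over the 9 group means were Irf7 (0.987), Ifi204 (0.96), Oasl2 (0.951), Zbp1 (0.947) and Oas3 (0.944), each induced by interferon. Irf7 read 11.23 and 11.33 in RPM, 10.33 and 10.09 in DTR microglia and 7.34 to 8.59 in naive microglia. It was called higher than in naive microglia in the groups where Slfn5 was called (RPM 3.39, DTR microglia 2.69, intestinal macrophages 2.53, Ly6Chi monocytes 2.15, F4/80hi macrophages at 4 weeks 1.91) and also in F4/80hi macrophages at 12 weeks (1.1) and F4/80low microglia at 4 weeks (1.01), where Slfn5 differed by 0.72 and 0.71. The Irf7 call at 12 weeks was lost without naive replicate 1 (1, adjusted p = 0.0529), and that in F4/80low microglia at 4 weeks without F4/80low replicate 1 or 2 (0.66 and 1.09, adjusted p = 0.254 and 0.0553), without naive replicate 1, 4 or 5 (0.98, 0.9 and 0.86) and without the 3 arrays of high neutrophil signal (0.48, adjusted p = 0.641). In F4/80low microglia at 12 weeks Irf7 differed by 0.12 and Slfn5 by 0.01. These comparisons share the naive arrays.

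**Figure D4:**
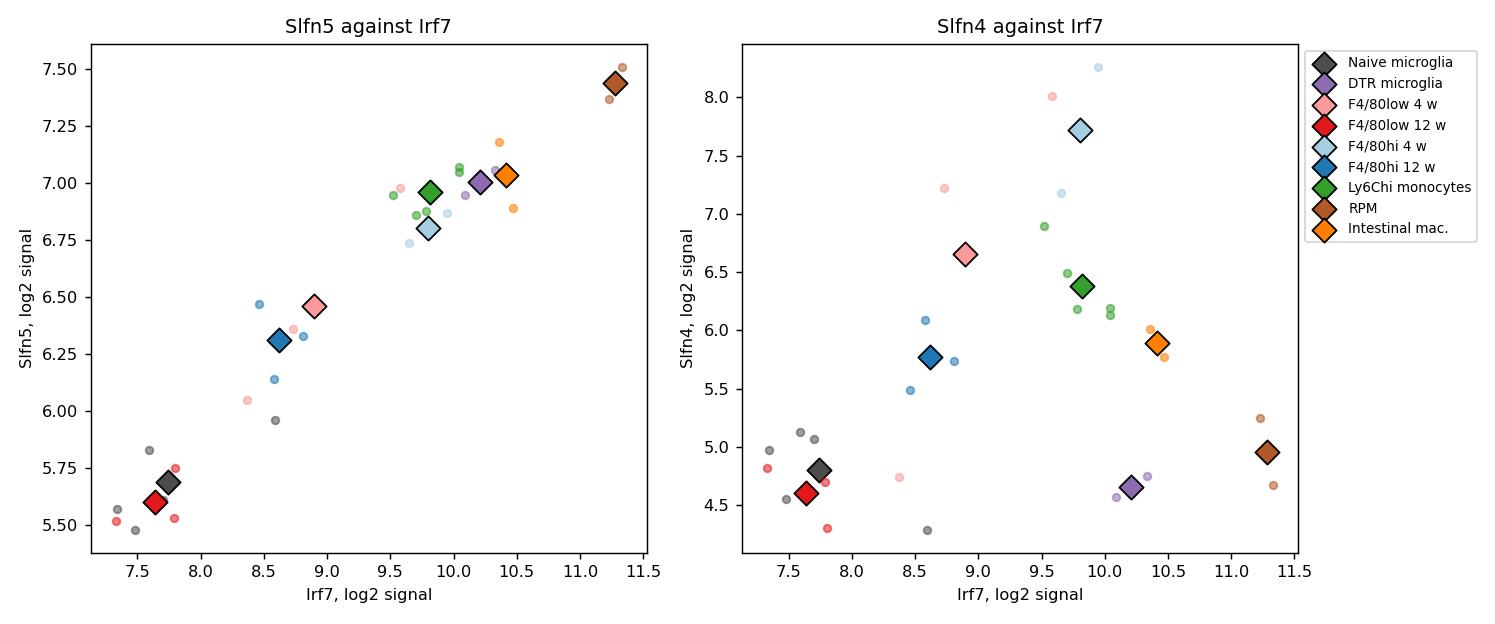
Small points are arrays and diamonds group means, with the log2 signal of Irf7 on the horizontal axis and that of Slfn5 (left) or Slfn4 (right) on the vertical axis. Slfn5 and Irf7 rise through the same order of groups, from F4/80low microglia at 12 weeks and naive microglia to RPM, whereas Slfn4 is at background in RPM and DTR microglia, which have Irf7 means of 11.28 and 10.21.

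Of a list of 35 interferon-stimulated genes, 30 had a transcript of their own. The number called higher than in naive microglia was 26 in DTR microglia (median log2 difference 1.68), 21 in RPM (1.77), 16 in intestinal macrophages (1.13), 14 in F4/80hi macrophages at 4 weeks (0.94), 11 in F4/80low microglia at 4 weeks (0.67), 10 in Ly6Chi monocytes (0.78), 8 in F4/80hi macrophages at 12 weeks (0.53) and none in F4/80low microglia at 12 weeks (0.12), and none was called lower. In the same order, 0.633%, 8.51%, 7.09%, 1.53%, 0.735%, 9.15%, 1.34% and 0.0527% of all transcripts were called higher. The median of all transcripts lay between -0.04 and 0.05 in these comparisons. Slfn5 was within 0.53 log2 units of the list's median in each of the 8 comparisons, and Slfn2 was below the median except in monocytes. Slfn8 was negative in RPM, intestinal macrophages, Ly6Chi monocytes and, at -0.17, F4/80low microglia at 12 weeks. The count for F4/80low microglia at 4 weeks was 1 without the 3 arrays of high neutrophil signal and 6 without F4/80low replicate 1 or without naive replicate 5, and that for F4/80hi macrophages at 12 weeks was 5 without naive replicate 1. In a fit of only the arrays compared the counts were 17 in DTR microglia, 4 in F4/80hi macrophages at 12 weeks and 1 in F4/80low microglia at 4 weeks, the last being 2 in batch 2 alone, and without the fold threshold the count in monocytes was 24. The share of all transcripts called under these alternatives is not given here. Of 13 genes of interferon receptors and signal transduction, between 0 and 3 were called in either direction in these comparisons.

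**Figure D5:**
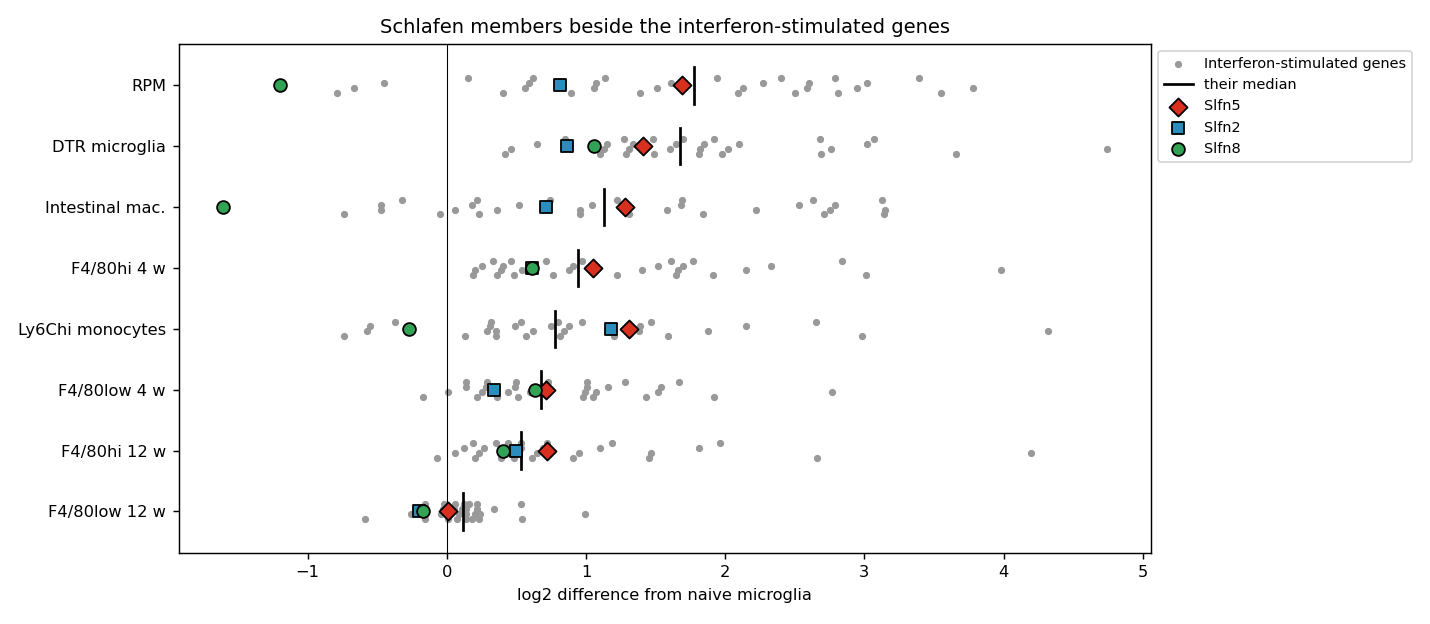
Grey points are the 30 measured interferon-stimulated genes and the black line their median; red diamonds, blue squares and green circles are Slfn5, Slfn2 and Slfn8. The horizontal axis is the log2 difference from naive microglia and each line is 1 group, ordered by the list's median. Slfn5 stays near the list's median from F4/80low microglia at 12 weeks (0.01 against 0.12) to RPM (1.69 against 1.77), while Slfn8 is at -1.2 in RPM and -1.61 in intestinal macrophages.

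The other members had other companions over the 9 group means. Slfn1 was most like Emilin2 (r = 0.99), Fam169a, Anxa1, the monocyte marker Ly6c2 (0.987) and Atp8b4. Slfn3 was most like 2010016I18Rik, Fancg, Txn2, Lta4h and Paxip1 (0.959 to 0.967), Slfn4 like P3h1 (0.912), Hdc, the histidine decarboxylase, Il1f9, Mir3068 and Scrg1, and Slfn8 like Cpsf3 (0.951), Vmn1r127, Zfp235, Morc3 and Golga1. After Gm20234, which holds the same values, Slfn2 was most like the ribosomal protein genes Rps4x (0.95), Rpl35, Rpl22 and Rpl28. Among the members, Slfn2 and Slfn5 were the most alike pair (0.934), Slfn1 and Slfn3 had r = 0.847, and Slfn8 ranged from -0.373 with Slfn1 to 0.21 with Slfn4. With 9 points and the highest of 8489 genes taken, these values describe the groups and carry no test.

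Of the remaining Schlafen transcripts, Slfn14, a long form known from reticulocytes and platelets as a ribosome-bound endoribonuclease, stood out in RPM. It read 8.8 and 7.64 in RPM and 4.15 to 5.56 in the other 25 arrays. It was 16.19-fold higher in RPM than in naive microglia (log2 difference 4.02, SE 0.22, adjusted p = 5.07e-13), 10.27-fold higher than in monocytes (adjusted p = 3.98e-11) and 13.14-fold higher than in intestinal macrophages (adjusted p = 3.91e-11), from levels near or under background. Klf1, an erythroid transcription factor and the only 1 of 4 erythroid markers with a transcript of its own here, moved with it, at 8.32 and 7.54 in RPM against 4.85 to 6.13 elsewhere, and the part of erythroid RNA in the Slfn14 signal was not tested. Slfn10-ps and Slfnl1, a Schlafen-like gene on another chromosome, had group means of 5.11 to 5.49 and 5.09 to 5.57, close to background in all groups.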

How the data were processed

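RNA of sorted cells was measured on Affymetrix Mouse Gene ST arrays, 27 in 9 groups. The deposited values are log2 signals, which the authors made in Partek; its version, probe summary and normalization are not given in the sources used here. They already carry a batch adjustment: the batch difference in naive microglia equals that in Ly6Chi monocytes (r = 1 over transcripts, largest gap 1.33e-04). This leaves no difference between these groups in how they vary with batch. The residual variance, shared by all comparisons, may therefore be understated and p-values too small. Of 41345 transcripts, 2145 were blank and 6955 were 0 in every array, which left 32245 for testing (22761 with 1 gene symbol in the platform annotation, 1683 with several, 7801 with none). Groups and batches came from the sample labels.

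A single linear model over all arrays (limma 3.58.1, R 4.3.3) held group means and batch, with 17 residual degrees of freedom, 6.23 prior ones and a prior SD of 0.229, and was tested on simulated data. Two-sided p-values were adjusted (Benjamini-Hochberg) within each of 18 comparisons. Promoter windows are RefSeq's (GRCm38.p6); proteins and progenitor cells are not analysed here. The text names the members, other Slfn transcripts, examples of the interferon and marker lists and the 5 genes most like each member. Members and lists were chosen with earlier results of these data known. Alternatives were: no batch term, quantile normalization, median centring, a filter at the 40th percentile of signal, transcripts with 1 symbol, a variance trend, only the arrays compared, 1 batch, each array left out, a replicate block, no fold threshold and, chosen after seeing the data, leaving out 3 arrays of high neutrophil signal.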

Additional observations from a re-analysis of the deposited data

Results flagged for a closer look

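Among the 14 sets of 5 arrays examined for a value far from the rest (7 Schlafen transcripts in naive microglia and in Ly6Chi monocytes), 2 held one by Dixon's criterion, where chance gives about 1 in 20. Slfn1 read 4.74 in naive microglia replicate 2, with a gap to the next array of 0.764 of the group's range (critical value 0.71), and all 5 naive values of Slfn1 are at background. Slfn2 read 7.34 in naive microglia replicate 3, with a gap of 0.813 of the range. The same array had the highest naive value of Irf7 (8.59), Oas2 (7.6), Rtp4 (8.81), Slfn5 (5.96) and the Slfn9/Slfn8 transcript (6.36), and the lowest of Slfn4 (4.29). Whether this array is one of the technical repeats is not given in the labels.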

How the results depend on the processing

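No member's difference changed direction while called, under any alternative: of 1866 values of the 6 members under the alternatives, 1778 stayed on their side of the call, 56 lost it and 32 gained it. The number of members called moved as follows. The share of all transcripts called under each alternative is not given in this section, so these counts are not set against it. Dropping the fold threshold can only add calls, in the whole table as among the members. Without the fold threshold it was 1 for F4/80hi at 12 weeks against naive microglia, 2 for F4/80hi against F4/80low at 12 weeks, 4 for F4/80hi at 12 weeks against monocytes, 2 for DTR microglia, and 5 each for RPM and intestinal macrophages against naive microglia. With only the arrays compared it was 1 for F4/80hi against F4/80low at 12 weeks, 0 at 4 weeks and 0 for F4/80low at 4 weeks against naive microglia; with 1 batch the values were 1, 0 and 0. F4/80hi against F4/80low at 4 weeks also had 0 without the batch term and after quantile normalization. From 4 to 12 weeks, 1 member was called in F4/80hi cells after quantile normalization or median centring, and 1 in F4/80low cells without the batch term. Without the 3 arrays of high neutrophil signal the counts were 2 for F4/80hi and 0 for F4/80low at 4 weeks against naive microglia and 1 for F4/80hi from 4 to 12 weeks; between them it stayed 1, with Slfn4 called in place of Slfn3. The cause of these shifts was not tested.

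Same-numbered arrays did not move together (r of -0.0789, -0.103 and -0.0551 at 12 weeks, 0.282 and -9.10e-04 at 4 weeks), so the numbers were not used as pairs. With the replicate number as a block the counts were 1 for F4/80hi and 0 for F4/80low at 4 weeks against naive microglia, and 0 between them, and the interferon-stimulated genes called against naive microglia numbered 13 in RPM and, of the 4-week groups, 4 in F4/80hi macrophages and 1 in F4/80low microglia. The member still called in F4/80hi macrophages at 4 weeks was Slfn3, while Slfn4 was lost.

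Leaving out 1 array at a time gave 2 to 5 members for F4/80hi and 0 to 2 for F4/80low at 4 weeks against naive microglia, 0 between them, 1 to 2 for DTR microglia, 1 to 3 for RPM against naive microglia, and 0 to 1 for F4/80low from 4 to 12 weeks. Fits with only the arrays compared could not be made for the changes from 4 to 12 weeks, whose groups lie in different batches, and no member had a second transcript of its own to try. Signal over background limits Slfn3 everywhere but in monocytes, and Slfn1 and Slfn4 in naive microglia: a fall from there cannot be seen, and folds against it may be understated.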
